A study of Mus musculus with 24 samples.

Results

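Cells in which auxin was removed on day 4 of neural differentiation and harvested 2 days later were compared with cells of the same age that stayed on auxin until day 6. The comparison holds 4 of the 24 RNA-seq libraries of the series, 2 labelled day 4 washout and 2 labelled day 6 auxin, chosen by sample title and not by any measured value. All cells derived from F123, an established mouse embryonic stem (ES) line of hybrid origin, and carried an auxin-inducible degron on CTCF. Washout cells had been differentiated with auxin up to day 4 and without it for 2 days, and day 6 auxin cells with auxin throughout in medium renewed every 24 h (500 mM stock, 1 µl added to each ml). Day 6 control cells, differentiated for the same time without auxin, and day 4 auxin cells, the state at the moment of removal, serve as reference points, with 2 libraries each. Cells harvested 2 days after removal of auxin on day 6, here day 6 washout, were the other group with auxin removed. Auxin-treated cells without the degron were not analysed here.

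CTCF is a zinc-finger protein that binds DNA, halts the cohesin complex as it extrudes chromatin loops and so helps to set which enhancers meet which promoters. A degron lets auxin direct the tagged protein to the proteasome, and removing auxin lets newly made protein accumulate again. Washout therefore asks which expression differences seen under CTCF loss are undone when the protein can return, and which are not. CTCF protein itself is not measured by RNA-seq.

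Total counts ran from 24696374 to 72048935 over the series and from 51957012 to 60295469 in the 4 libraries compared. Of 51697 genes, 21859 had enough counts to be tested. Levels are given as CPM, counts divided by the library's effective size and not by gene length, so they are compared between libraries and not between genes. A gene is called changed at an adjusted p below 0.05 in edgeR's quasi-likelihood test, fitted to the 12 control, auxin and washout libraries of days 4 and 6. The ± of a log2 fold change is its standard error, with n = 2 libraries per group. The labels do not say whether replicates came from separate cultures, so p-values measure the spread between these libraries. That spread was small, with a standard deviation of the log2 replicate ratio across genes of 0.196 in day 4 washout and 0.18 in day 6 auxin. In a fit to all 24 libraries, 1606 genes were called in place of 10130, and genes described below that lost their call there are named. Of 172 counts of list members higher or lower than in auxin or control, 146 moved by more than 1.5 times in that fit. The neural label was checked on Pax6, Sox1 and Nes, all present in day 6 controls, where the pluripotency factor Pou5f1 was also still present.

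The washout libraries stood apart from the control and auxin libraries of days 4 and 6 in ways that bear on many genes. Among gene counts of 1 to 20, 59.6% and 59.9% were even in the day 4 washout libraries and 60.1% to 60.5% in the day 6 washout libraries, against 65.9% to 72.2% in the 8 control and auxin libraries of days 4 and 6. Of a list of 18 small and structural RNA genes, the 10 tested held 309 and 265 summed CPM in day 4 washout and 199 and 228 in day 6 washout. The same 10 held 581 to 718 in those 8 libraries, most of them from Lars2, a mitochondrial tRNA synthetase gene. A list of 18 immediate early genes, which respond within minutes to growth factors or stress, held 1668 and 1651 summed CPM in day 4 washout and 1291 and 1359 in day 6 washout. The same list held 450.5 to 569 in the 8 control and auxin libraries. Library handling and removal of auxin cannot be told apart for any gene, whether its washout level lies inside or outside the range of those 8 libraries. Genes named below whose washout level lay outside all 8 are listed as such.

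**Figure D1:**
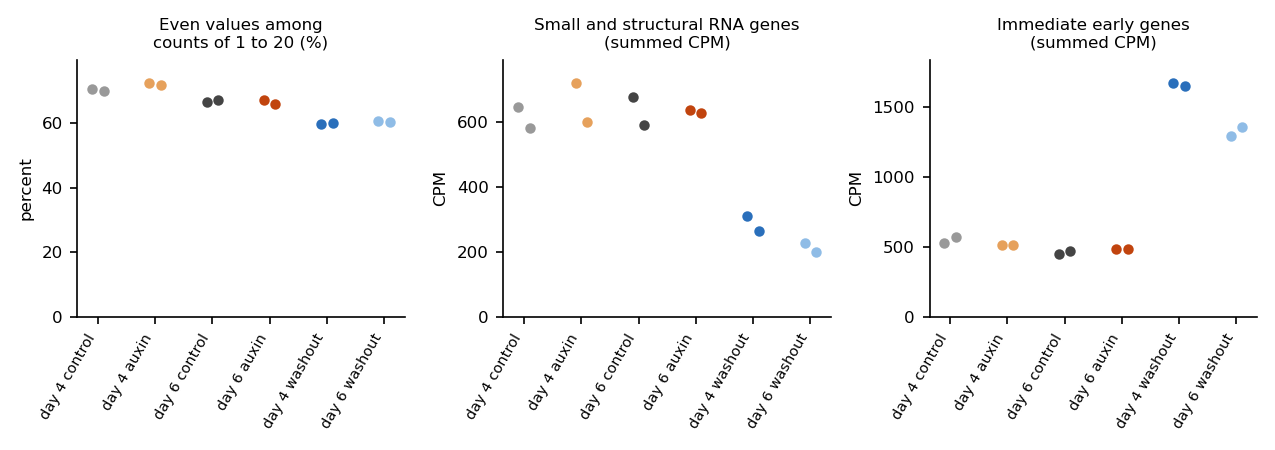
Share of even values among gene counts of 1 to 20 (percent), and summed CPM of small and structural RNA genes and of immediate early genes, in each of the 12 libraries of days 4 and 6. Points are single libraries, all axes start at 0, and the 4 washout libraries lie apart from the other 8 in each panel.

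Of the 21859 genes tested, 5138 (23.5%) were higher and 4992 (22.8%) lower in day 4 washout than in day 6 auxin, 10130 (46.3%) in all. Most differences were small, and 1405 genes (6.43%) were higher and 1065 (4.87%) lower by at least 2-fold. Against day 6 controls, day 4 washout cells were higher at 4810 genes (22%) and lower at 5132 (23.5%). Day 6 auxin itself differed from day 6 control at 8945 genes (40.9%), and day 4 washout from day 4 auxin at 12037 (55.1%); these comparisons share libraries with the first. Both day 4 washout libraries lay above all 8 control and auxin libraries at 3238 genes (14.8%) and below all 8 at 3003 (13.7%). Among genes higher than in day 6 auxin, 2510 lay above that range and 2628 did not. Among the lower genes, 2414 lay below it and 2578 did not. The median log2 fold change over all tested genes was −0.00032. Counts of list members given below are to be read beside these shares.

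**Figure D2:**
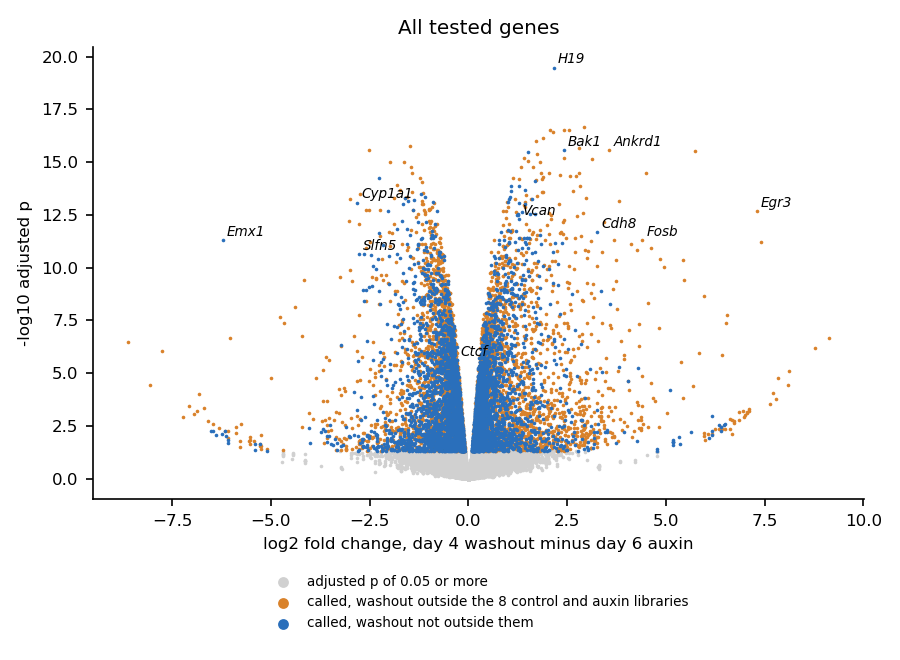
Log2 fold change of day 4 washout over day 6 auxin and −log10 of the adjusted p for the 21859 tested genes. Grey genes were not called, orange genes were called with both washout libraries outside the 8 control and auxin libraries of days 4 and 6, and blue genes were called without lying outside them; Egr3 is orange, and Emx1, Bak1 and H19 are blue.

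Ctcf mRNA (mm10 chromosome 8, 105636568 to 105682922, plus strand) was at 208 and 216 CPM in day 4 washout, 254 and 268 in day 6 auxin and 206 and 208 in day 6 controls. The washout and control libraries lay close together and below both auxin libraries. The degron acts on the protein, so the mRNA does not check the depletion. The fall from day 6 auxin was modest (log2 fold change −0.30 ± 0.04, adjusted p = 2.4e-06), and washout against control was short of the threshold (log2 fold change 0.04 ± 0.04, adjusted p = 0.51). Of 21 tested genes of CTCF, cohesin and their loaders and regulators, 3 were higher and 10 lower, with a median of −0.12. Stag1, a cohesin subunit, read 172 and 165 CPM in washout, 287 and 297 in day 6 auxin and 191 and 185 in controls. It fell from the auxin level (log2 fold change −0.79 ± 0.04, adjusted p = 8.6e-13) to slightly below control (log2 fold change −0.16 ± 0.04, adjusted p = 0.0034). The meiotic cohesin subunit Stag3 stood at 34.9 and 39.9 CPM against 73.1 and 73.5 on auxin and 32.3 and 30.1 in controls (log2 fold change −0.97 ± 0.07, adjusted p = 7.3e-11). Smc1b, another meiotic subunit, read 20.1 and 21.8 against 34.4 and 36.2 on auxin and 17.7 and 15.8 in controls (log2 fold change −0.75 ± 0.07, adjusted p = 1.1e-08). Both meiotic genes were high on auxin and slightly above control after removal. Against control, Stag3 had log2 fold change 0.26 ± 0.07, adjusted p = 0.0035, and Smc1b log2 fold change 0.33 ± 0.07, adjusted p = 0.00084. Ctcfl, the germline paralogue of Ctcf, read 1.77 and 2.24 CPM in washout, 4.09 and 3.3 on auxin and 2.69 and 3.41 in controls (log2 fold change −0.88 ± 0.17, adjusted p = 0.00018). Stag1 and Ctcfl lay below all 8 control and auxin libraries in washout. Ctcf, Smc1b and Ctcfl did not pass with all 24 libraries in the fit. Against control, Stag1, Stag3 and Smc1b did not pass in that fit.

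Several of the strongest decreases were genes that were high on auxin and at or near the control level after removal. Among the 12 largest decreases of genes averaging 1 or more in log2 CPM over the 4 libraries, 5 did not pass against the day 6 control, 2 were above it and 5 below it, and in the fit of all 24 libraries 8, 0 and 4. Emx1, a homeobox factor of the cerebral cortex (mm10 chromosome 6, 85187438 to 85204462, plus strand), read 0.0771 and 0.104 CPM in day 4 washout and 8.04 and 5.92 in day 6 auxin. It read 9.12 and 7.94 in day 4 auxin and 0.131 and 0 in day 6 controls. Every auxin library was high and every control and washout library near 0, so the gene was on at the time of removal and near 0 by 2 days later. It fell steeply (log2 fold change −6.23 ± 0.36, adjusted p = 4.7e-12), and no difference from control was detectable at these counts (log2 fold change 0.58 ± 0.86, adjusted p = 0.62). Cyp1a1, a cytochrome P450 induced through the aryl hydrocarbon receptor (mm10 chromosome 9, 57687928 to 57703824, plus strand), read 1.72 and 2.21 CPM in washout, 13.9 and 14.1 in day 6 auxin and 17 and 17.9 in day 4 auxin. Its controls were at 0.624 and 0.92, so washout lay far below auxin (log2 fold change −2.83 ± 0.13, adjusted p = 8.3e-14) and still above control (log2 fold change 1.33 ± 0.18, adjusted p = 3.1e-06). In day 6 washout it remained at 4.79 and 4.78 CPM. Of 7 tested genes of that receptor's pathway, Cyp1a1 included, 2 were higher, 1 lower and 4 not called (median −0.04). Ahrr, which encodes the repressor of the receptor, was higher at 1.23 and 1.3 against 0.397 and 0.772 CPM (log2 fold change 1.13 ± 0.32, adjusted p = 0.0054), a call lost without day 6 auxin replicate 1. Cyp1a1 and Ahrr did not pass with all 24 libraries in the fit. Against control, Cyp1a1 did not pass in that fit.

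Slfn5, a Schlafen family gene, read 0.81 and 0.609 CPM in washout against 4.78 and 4.9 in day 6 auxin and 0.427 and 0.446 in controls (log2 fold change −2.78 ± 0.18, adjusted p = 2.2e-11). Cpa1, a pancreatic carboxypeptidase, read 0.694 and 0.835 against 5.11 and 4.56 on auxin and 0.525 and 0.585 in controls (log2 fold change −2.65 ± 0.17, adjusted p = 2.2e-11). Rspo4, a secreted enhancer of Wnt signalling, read 0.54 and 0.644 against 3.72 and 3.75 on auxin and 0.263 and 0.446 in controls (log2 fold change −2.65 ± 0.23, adjusted p = 3.7e-09). In all 3 the washout libraries lay below every auxin library and close to the controls. Slfn5 was still called above control (log2 fold change 0.69 ± 0.25, adjusted p = 0.026), a call lost in 5 of 13 alternatives. Fam110c, which encodes a centrosome-associated protein, read 6.29 and 5.97 CPM in washout, 29.6 and 29 in day 6 auxin, 28.7 and 28.5 in day 4 auxin and 4.37 and 4.31 in controls (log2 fold change −2.26 ± 0.09, adjusted p = 5.7e-15). The muscle myosin chaperone Unc45b (−2.43), the phospholipid flippase gene Atp8b5 (−2.46), the pore-forming gasdermin Gsdma (−2.27) and the homeobox gene Dlx3 (−2.29) fell likewise, by their log2 fold changes. All 4 had been at least as high on day 4 auxin. Zcwpw2, annotated as a transcribed unprocessed pseudogene, read 1.39 and 0.626 CPM in washout, 6.24 and 6.34 on auxin and 1.08 and 1.44 in controls (log2 fold change −2.66 ± 0.22, adjusted p = 1.1e-09). Fam110c was called above control (log2 fold change 0.50 ± 0.10, adjusted p = 0.00033). Dlx3 did not pass with all 24 libraries in the fit. Against control, Slfn5 and Fam110c did not pass in that fit.

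A smaller group had not been high when auxin was removed. C1qtnf3, a secreted protein of the C1q and tumour necrosis factor superfamily, read 0.658 and 0.482 CPM in day 4 auxin, 5.68 and 4.56 in day 6 auxin and 0.926 and 0.765 in washout (log2 fold change −2.60 ± 0.21, adjusted p = 1.1e-09). Corin, a serine protease that activates natriuretic peptides, read 1.32 and 1.46 on day 4 auxin, 4.37 and 4.49 on day 6 auxin and 0.771 and 0.852 in washout (log2 fold change −2.44 ± 0.19, adjusted p = 7.4e-10). Both were low on day 4 and highest where auxin was kept to day 6, while washout cells stayed low. Day 6 controls read 1.81 and 2.2 CPM for C1qtnf3 and 1.3 and 1.49 for Corin. Washout lay below control in both (log2 fold change −1.25 ± 0.22, adjusted p = 8e-05, and log2 fold change −0.78 ± 0.21, adjusted p = 0.0043). Neither gene passed against control with all 24 libraries in the fit. Dppa1, an early embryo gene, read 3.03 and 2.65 CPM on day 4 auxin, 6.69 and 7.02 on day 6 auxin, 1.12 and 1.25 in washout and 0.706 and 0.906 in controls (log2 fold change −2.53 ± 0.20, adjusted p = 8.5e-10). Of the 15 protein-coding genes with the largest decreases whose washout level was inside the range of the 8 libraries and whose log2 CPM averaged 1 or more, 8 did not pass against the day 6 control, 5 were above it and 2 below it, and in the fit of all 24 libraries 14, 1 and 0. These 15 genes, and the 15 on the opposite side below, were picked after their values had been seen. Both sets were limited to a range that includes the day 6 controls, a choice that itself favours washout levels near control. Their tallies against control thus cannot measure a return to control.

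Some genes that were low on auxin rose after removal, to the control level or part of the way. The largest increases mostly went beyond control. Of the 12 largest under the same limit on level, 11 were above the day 6 control, 1 (Cdh8) was below it and 0 did not pass. Those 11 also lay above all 8 control and auxin libraries in washout. Bak1, a pore-forming mediator of apoptosis (mm10 chromosome 17, 27019810 to 27029009, minus strand), read 25.1 and 26.1 CPM in washout, 4.58 and 5.03 in day 6 auxin, 4.42 and 4.47 in day 4 auxin and 57.6 and 61.2 in day 6 controls. Washout lay between the auxin and control libraries with no overlap on either side (log2 fold change 2.42 ± 0.08, adjusted p = 2.8e-16 against day 6 auxin, and log2 fold change −1.21 ± 0.06, adjusted p = 3.8e-13 against control). Day 6 washout was at a like level, 23.1 and 24.1 CPM. Cdh8, a cadherin adhesion gene, read 5.77 and 5.81 CPM against 0.563 and 0.646 in day 6 auxin, 0.0731 and 0.151 in day 4 auxin and 8.01 and 8.74 in controls (log2 fold change 3.26 ± 0.18, adjusted p = 2e-12). Its washout libraries lay below the control (log2 fold change −0.53 ± 0.13, adjusted p = 0.0017) and far above day 4 auxin. Epha3, an ephrin receptor, read 8 and 8.16 against 1.49 and 1.65 on day 6 auxin and 16 and 14 in controls (log2 fold change 2.36 ± 0.14, adjusted p = 6.5e-12). Cdh8 did not pass against control with all 24 libraries in the fit.

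H19, an imprinted noncoding RNA whose control region is a classic CTCF target (mm10 chromosome 7, 142575529 to 142578143, minus strand), had the smallest adjusted p of the genes named here. It read 376 and 374 CPM in washout, 82.8 and 85.1 in day 6 auxin, 21.5 and 21.1 in day 4 auxin and 425 and 423 in day 6 controls. Washout was far above both auxin groups (log2 fold change 2.16 ± 0.04, adjusted p = 3.3e-20) and slightly below control (log2 fold change −0.18 ± 0.04, adjusted p = 0.00055). Of 26 tested imprinted genes, 13 were higher and 9 lower, with a median of 0.15. Kcnq1ot1, the antisense transcript of another imprinted domain, was lower at 18.1 and 12.1 CPM against 44.7 and 66.7 (log2 fold change −1.89 ± 0.20, adjusted p = 6.1e-08), with controls at 37.9 and 23.3. Grb10, a growth-factor receptor adaptor, read 69.6 and 77.4 in washout, 169 and 172 on auxin and 36.4 and 37.3 in controls. It lay between the groups, with log2 fold change −1.21 ± 0.05, adjusted p = 3.4e-14 from auxin and log2 fold change 1.00 ± 0.05, adjusted p = 1.4e-12 against control. H19 did not pass with all 24 libraries in the fit. Against control, H19 did not pass in that fit.

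Peg12, an imprinted gene of the Prader-Willi region, read 5.21 and 4.91 CPM in washout, 1.03 and 1.06 in day 6 auxin, 1.35 and 1.02 in day 4 auxin and 7.86 and 8.54 in controls. The gene was low in all 4 auxin libraries and higher in washout (log2 fold change 2.28 ± 0.16, adjusted p = 6.5e-11), short of control (log2 fold change −0.70 ± 0.12, adjusted p = 5e-05). Its promoter is shown because it held a CTCF core word, searched as CCA, any 2 bases, AG, any 2 bases and GGC on both strands of RefSeq windows of 250 bases before to 50 after each start (GRCm38.p6). The match is in capitals and lies on the strand opposite to the gene.
Peg12 chr7:62464461-62464760, minus strand: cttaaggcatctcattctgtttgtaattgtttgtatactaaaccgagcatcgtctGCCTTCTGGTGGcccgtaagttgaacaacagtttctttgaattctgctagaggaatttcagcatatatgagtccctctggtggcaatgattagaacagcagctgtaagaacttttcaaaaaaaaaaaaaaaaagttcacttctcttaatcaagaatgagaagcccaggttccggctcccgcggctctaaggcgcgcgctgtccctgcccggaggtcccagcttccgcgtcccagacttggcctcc
The word occurred in 3.25% of 13514 tested genes with a window, in 5.27% of 607 that were higher by at least 2-fold, in 5.09% of 452 that were lower by at least 2-fold and in 2.65% of 6791 not called. Higher and lower genes held it at similar shares. A match describes these letters and is not a measured binding site. Peg12 did not pass against control with all 24 libraries in the fit.

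Col4a6, a basement membrane collagen chain, read 3.97 and 3.97 CPM in washout against 0.844 and 0.79 on auxin and 4.38 and 4.24 in controls (log2 fold change 2.28 ± 0.18, adjusted p = 6.6e-10). Spock3, a brain proteoglycan, read 9.06 and 10.5 against 2.35 and 2.05 on auxin and 11.3 and 11.3 in controls (log2 fold change 2.15 ± 0.14, adjusted p = 1.8e-11). In neither did washout pass against control. Has2, which makes hyaluronan, read 8.72 and 11.8 against 2.63 and 1.97 on auxin and 16 and 16.7 in controls (log2 fold change 2.15 ± 0.17, adjusted p = 5.2e-10). Tgm5, a transglutaminase, read 5.03 and 5.17 in washout against 1.17 and 1.26 on day 6 auxin, 4.63 and 5.87 in controls and 14.1 and 13.5 in day 6 washout (log2 fold change 2.07 ± 0.19, adjusted p = 5e-09). Among the 15 protein-coding genes with the largest increases inside the range, under the same limit on level, 4 did not pass against control, 9 were below it and 2 above it. With all 24 libraries in the fit, 13 did not pass, 1 was below and 1 above. Col4a6 and Has2 did not pass with all 24 libraries in the fit.

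Vcan, which encodes the matrix proteoglycan versican (mm10 chromosome 13, 89655312 to 89742509, minus strand), read 141 and 119 CPM in washout, 51 and 56 in day 6 auxin, 11.8 and 10.9 in day 4 auxin and 227 and 222 in day 6 controls. The level had risen on auxin between days 4 and 6, and washout lay above it and below control without overlap (log2 fold change 1.28 ± 0.07, adjusted p = 5.2e-13, and log2 fold change −0.79 ± 0.06, adjusted p = 6e-10 against control). The neighbours Hapln1 and Edil3 on chromosome 13 were also higher. Hapln1, which links proteoglycans to hyaluronan, read 16.7 and 16.9 against 5.08 and 5.89 on auxin and 17.7 and 16.5 in controls (log2 fold change 1.62 ± 0.10, adjusted p = 2e-11). Edil3, an integrin ligand, read 17.6 and 17.4 against 2.02 and 2.41 on auxin and 13.7 and 15.4 in controls (log2 fold change 2.99 ± 0.13, adjusted p = 5.3e-14). Hapln1 was not called against control (log2 fold change −0.03 ± 0.09, adjusted p = 0.85), and Edil3 was slightly above it (log2 fold change 0.27 ± 0.11, adjusted p = 0.047), a call lost in 6 of 13 alternatives. Tmem167, also nearby, read 109 and 113 against 102 and 109 on auxin, short of the threshold (log2 fold change 0.07 ± 0.05, adjusted p = 0.23). Edil3 lay above all 8 control and auxin libraries in washout. Vcan did not pass against control with all 24 libraries in the fit.

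**Figure D3:**
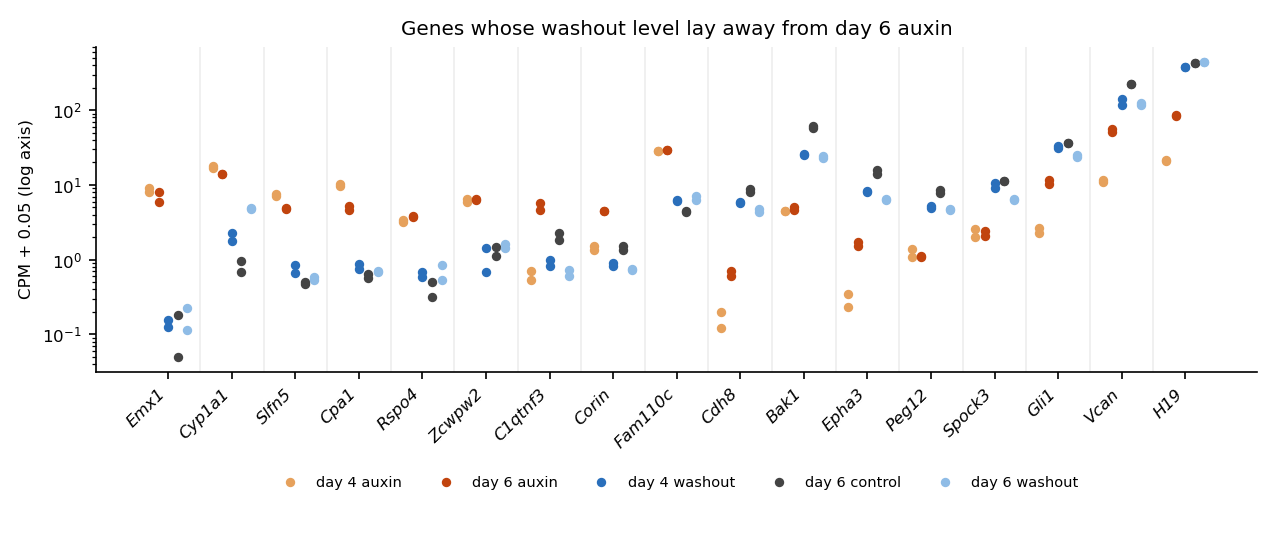
CPM of 17 genes on a log axis after adding 0.05, with 2 points (libraries) per group. Genes from Emx1 to Fam110c are lower in day 4 washout (blue) than in day 6 auxin (red). Of these, Cyp1a1, Slfn5 and Fam110c were called above day 6 control (dark grey), and C1qtnf3 and Corin below it. None of these calls against control passed with all 24 libraries in the fit. Genes from Cdh8 to H19 are higher than in day 6 auxin.

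Clustered protocadherins, adhesion proteins of the neuron surface whose promoters carry CTCF sites, were higher as families. Of 20 tested protocadherin beta genes, 14 were higher, all by at least 2-fold, and 0 lower, with a median of 1.54 that is the same with the 1 member without counts in a group set to 3 counts. Of 21 protocadherin gamma genes, 15 were higher (12 by at least 2-fold) and 0 lower (median 1.08). Both medians compare with −0.00032 over all tested genes. Reads from exons that members share cannot be assigned to single genes. Pcdhga7 read 3.86 and 3.62 CPM in washout, 0.414 and 0.808 in day 6 auxin, 0.164 and 0.301 in day 4 auxin and 7.9 and 7.89 in controls (log2 fold change 2.62 ± 0.22, adjusted p = 1.8e-09). Pcdhga5 read 3.22 and 2.84 against 0.596 and 0.61, with controls at 4.33 and 4.95 (log2 fold change 2.32 ± 0.22, adjusted p = 1.6e-08). Pcdhb8 read 1.04 and 0.8 against 0.132 and 0.233, with controls at 1.46 and 1.13 (log2 fold change 2.33 ± 0.40, adjusted p = 5.2e-05). All 3 genes lay between auxin and control, and Pcdhb8 was not called against control (log2 fold change −0.49 ± 0.31, adjusted p = 0.21). Against day 6 controls, 11 of the beta genes were lower and 1 higher, and 13 and 1 of the gamma genes. In the fit of all 24 libraries, 3 beta and 7 gamma genes were called higher, and in the other settings 8 to 17 and 13 to 15. The 11 tested protocadherins outside the clusters held 7 higher, 1 lower and a median of 1.73. Pcdh18 read 44.7 and 45 CPM against 11.5 and 12.8 on auxin and 28 and 28.6 in controls (log2 fold change 1.88 ± 0.07, adjusted p = 4.9e-15), and the log2 fold change of Pcdh7 was 2.33. Pcdh18 and Pcdh7 lay above all 8 control and auxin libraries in washout.

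Axon guidance and adhesion genes shared this direction, with 12 of 24 tested genes higher, 5 lower and a median of 0.46. The contactin gene Cntn6 read 2.95 and 2.49 CPM against 0.364 and 0.233 on auxin and 1.61 and 1.35 in controls (log2 fold change 3.17 ± 0.31, adjusted p = 2.2e-08). Cntn4, its relative, read 1.97 and 1.84 against 0.298 and 0.215 on auxin and 1.13 and 1.39 in controls (log2 fold change 2.87 ± 0.34, adjusted p = 3.1e-07). Chl1, a close homologue of L1 adhesion molecules, read 1.48 and 1.88 against 0.265 and 0.197 on auxin and 4.1 and 2.7 in controls (log2 fold change 2.85 ± 0.34, adjusted p = 4.1e-07). Cntn6 was above control (log2 fold change 0.88 ± 0.25, adjusted p = 0.0059, a call lost without day 4 washout replicate 1), Chl1 was below it (log2 fold change −1.01 ± 0.24, adjusted p = 0.0016) and Cntn4 did not pass against it. Against controls the list was mostly lower, with 15 lower and 4 higher (median −0.80). Cntn6 and Cntn4 lay above all 8 control and auxin libraries in washout. Cntn6 and Chl1 did not pass against control with all 24 libraries in the fit.

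Many neuronal genes were higher than on auxin and still far below control. Olig2, the motor neuron progenitor factor, read 0.154 and 0.104 CPM in washout, 0.0662 and 0.0718 in day 6 auxin and 6.34 and 6.23 in day 6 controls. Washout and auxin libraries were near 0, their difference was short of the threshold (log2 fold change 0.88 ± 0.56, adjusted p = 0.24), and washout lay far below control (log2 fold change −5.59 ± 0.25, adjusted p = 4e-14). Dcx, a microtubule protein of migrating neurons, read 4.94 and 5.15 against 2.55 and 1.9 on day 6 auxin, 0.256 and 0.331 on day 4 auxin and 52.6 and 52.5 in controls. It rose (log2 fold change 1.17 ± 0.13, adjusted p = 9.2e-08) and was still far below control (log2 fold change −3.38 ± 0.10, adjusted p = 3e-17). Tubb3, the neuronal tubulin, read 8.83 and 8.21 against 6.07 and 6.23 on auxin and 71.7 and 79.4 in controls, again a small rise (log2 fold change 0.47 ± 0.10, adjusted p = 0.00035) far short of control (log2 fold change −3.15 ± 0.08, adjusted p = 7.8e-18). Tubb3 did not pass with all 24 libraries in the fit.

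The zinc-finger neuronal regulator Myt1 was at 0.386 and 0.557 CPM in washout and 13.1 and 12.7 in controls (log2 fold change −4.75 ± 0.32, adjusted p = 3.7e-11), and the proneural factor Neurod4 at 0.424 and 0.487 in washout and 10.9 and 10 in controls (log2 fold change −4.51 ± 0.26, adjusted p = 8.3e-12). On auxin Myt1 stood at 0.232 and 0 CPM (log2 fold change 1.96 ± 0.63, adjusted p = 0.014 for washout over auxin) and Neurod4 at 0.232 and 0.0718 (log2 fold change 1.55 ± 0.49, adjusted p = 0.013). Both rises were lost without day 4 washout replicate 2, without day 6 auxin replicate 2 and with DESeq2, and that of Myt1 also with the 4 libraries alone. Nhlh2, a helix-loop-helix factor of young neurons, rose from 0.132 and 0.108 CPM on auxin to 0.617 and 0.731 (log2 fold change 2.47 ± 0.36, adjusted p = 6.1e-06) against 13.9 and 15.4 in controls. Elavl4, a neuronal RNA-binding protein gene, rose from 0.496 and 0.61 to 1.04 and 1.15 (log2 fold change 0.99 ± 0.23, adjusted p = 0.0013) against 18.8 and 21.2. Both rises left the genes far below control. Isl1, a LIM homeobox factor of motor neurons, had come further, at 5.63 and 6.24 CPM against 1.97 and 2.42 on auxin and 12 and 12.7 in controls (log2 fold change 1.44 ± 0.14, adjusted p = 1.1e-08). Gap43, a growth cone protein, read 2.51 and 3.06 against 1.19 and 0.754 on auxin and 16.4 and 18.3 in controls (log2 fold change 1.51 ± 0.21, adjusted p = 2.7e-06). Myt1, Neurod4, Nhlh2, Elavl4 and Gap43 did not pass with all 24 libraries in the fit.

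Proneural, Ebf, Myt1 and Onecut and neuronal RNA-binding genes were more often higher than lower against auxin, and all 6 neuronal lists held more lower than higher genes against control. Of 12 tested proneural factors, 6 were higher and 1 lower than in day 6 auxin, while 9 were lower and 2 higher than in control (medians 0.79 and −3.10). Of 10 Ebf, Myt1 and Onecut factors, 5 were higher and 1 lower than in auxin, and 9 lower and 1 higher than in control (medians 0.61 and −1.31). Of 15 neuronal RNA-binding protein genes, 6 were higher and 0 lower than in auxin, and 13 lower and 0 higher than in control (medians 0.25 and −1.73). With all 24 libraries in the fit, 1, 1 and 0 genes of these 3 lists were called higher than in auxin, while 8, 6 and 7 were still called lower than in control. Of 22 genes of the young neuron cytoskeleton, 10 were higher and 9 lower than in auxin, against 20 lower and 1 higher than in control. Mapt, which encodes tau, fell from 34.5 and 36.8 CPM on auxin to 10.7 and 11.8, below the controls at 16 and 16.6 (log2 fold change −1.66 ± 0.08, adjusted p = 9.2e-14). Mapt thus went opposite to Tubb3 and Dcx. Of 26 motor neuron and interneuron factors, 4 were higher and 6 lower (median −0.16), and of 21 synapse genes 6 and 4 (median 0.00). In the largest fit the motor neuron list held 2 higher and 0 lower genes and the synapse list 1 and 3. Against control these 2 lists held 16 and 15 lower genes. The glutamate receptor gene Gria4 read 1 and 1.22 against 0.232 and 0.18 on auxin and 1.82 and 1.67 in controls (log2 fold change 2.42 ± 0.37, adjusted p = 1.2e-05). Fewer neuronal cells and less RNA per cell cannot be told apart in bulk libraries.

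**Figure D4:**
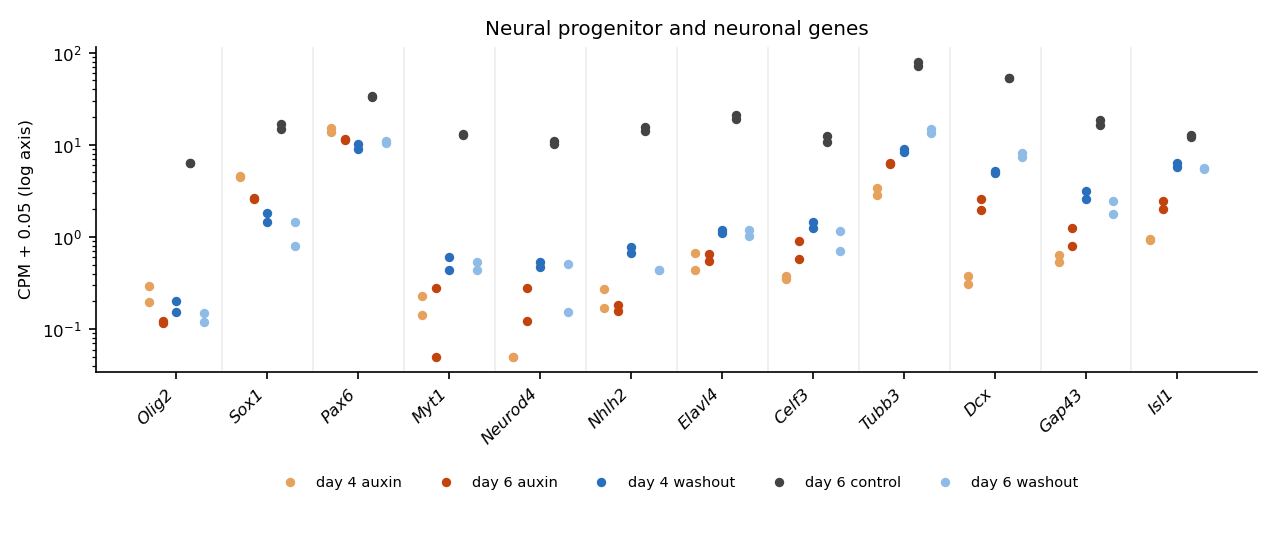
CPM of 12 neural progenitor and neuronal genes on a log axis after adding 0.05, with 2 points (libraries) per group. For each gene day 4 washout (blue) lies below day 6 control (dark grey).

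Progenitor genes were split. Pax6, a neural progenitor factor, read 10.2 and 8.98 CPM in washout, 11.1 and 11.4 in day 6 auxin, 15 and 13.8 in day 4 auxin and 33 and 33.7 in controls. Sox1, an early neural factor, read 1.77 and 1.39 in washout, 2.55 and 2.57 in day 6 auxin, 4.48 and 4.47 in day 4 auxin and 14.6 and 16.7 in controls. Day 6 washout read 10.5 and 10.9 CPM for Pax6 and 0.752 and 1.39 for Sox1. Day 4 washout lay below the auxin and control libraries in both genes. It was well below control (log2 fold change −1.80 ± 0.07, adjusted p = 1.1e-14 for Pax6 and log2 fold change −3.31 ± 0.15, adjusted p = 4.3e-14 for Sox1). Their differences from day 6 auxin (log2 fold change −0.23 ± 0.08, adjusted p = 0.022, and log2 fold change −0.70 ± 0.18, adjusted p = 0.0031) were lost without day 4 washout replicate 2, and that of Pax6 also without either auxin replicate, with the 4 libraries alone, without the filter on low counts and with the day 2 libraries in the fit. Sox2 was at 30.5 and 28.1 CPM against 32 and 27.8 on auxin, a difference short of the threshold (log2 fold change −0.03 ± 0.08, adjusted p = 0.77). Nes, an intermediate filament of progenitors, was higher at 201 and 193 against 118 and 126 on auxin, with controls at 146 and 143 (log2 fold change 0.69 ± 0.05, adjusted p = 3.3e-10). Of 24 radial glia and progenitor markers, 10 were higher, 7 of them by at least 2-fold, and 6 lower (median 0.33). The membrane proteolipid relatives Gpm6a (8.83 and 8.73 against 2.05 and 2.19 CPM, log2 fold change 2.05 ± 0.14, adjusted p = 8.2e-11) and Gpm6b (14.3 and 13.2 against 3.77 and 3.91 CPM, log2 fold change 1.84 ± 0.11, adjusted p = 7.5e-12) and the glial fate factor Sox9 (27.5 and 29.8 against 12.4 and 11.6 CPM, log2 fold change 1.25 ± 0.09, adjusted p = 6.1e-11) were among the higher ones. Against control the list held 19 lower and 4 higher genes (median −1.05). Of 25 neural tube patterning factors, 7 (28%) were higher and 5 (20%) lower than in auxin (median 0.37), near the 23.5% and 22.8% of all tested genes. Against control, 14 of them were lower and 3 higher. Prdm8, a repressor in interneuron progenitors, read 1.06 and 1.22 CPM against 0.397 and 0.449 on auxin and 5.47 and 5.66 in controls (log2 fold change 1.43 ± 0.26, adjusted p = 8.4e-05). Nes, Gpm6a and Sox9 lay above, and Pax6 and Sox1 lay below all 8 control and auxin libraries in washout. Pax6, Sox1, Nes and Prdm8 did not pass with all 24 libraries in the fit.

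Hedgehog signalling patterns the ventral neural tube, and Gli1 is its transcriptional readout. Gli1 read 31.3 and 33.1 CPM in washout, 10.3 and 11.5 in day 6 auxin, 2.21 and 2.59 in day 4 auxin and 36.4 and 36.4 in controls. It rose close to control (log2 fold change 1.56 ± 0.08, adjusted p = 2.8e-13), with a difference from control (log2 fold change −0.18 ± 0.07, adjusted p = 0.046) that was lost in 12 of 13 alternatives. The hedgehog-binding protein gene Hhip, another target, read 21.6 and 18.3 against 6.59 and 7.09 on auxin and 28.7 and 27.3 in controls (log2 fold change 1.54 ± 0.11, adjusted p = 2.4e-10). Both targets approached control. The ligand gene Ihh went the other way, at 30.6 and 36.6 against 61.8 and 58.2 (log2 fold change −0.84 ± 0.07, adjusted p = 1e-09). The pathway as a whole was split. Of 16 hedgehog pathway genes, 5 were higher and 5 lower (median −0.03), and against control 2 and 12. Ihh lay below all 8 control and auxin libraries in washout. Hhip and Ihh did not pass with all 24 libraries in the fit.

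Retinoic acid drives neural and posterior identity. Its synthesising enzyme Aldh1a2 read 93.8 and 85.4 CPM in washout, 42 and 45 in day 6 auxin and 111 and 119 in controls (log2 fold change 1.04 ± 0.07, adjusted p = 5.1e-11). Aldh1a3, another synthesising enzyme, went the other way, at 0.713 and 1.22 against 4.32 and 4.92 on auxin and 0.919 and 0.78 in controls (log2 fold change −2.24 ± 0.20, adjusted p = 5.3e-09). The degrading enzyme Cyp26b1 fell from 1017 and 1020 to 581 and 531 CPM, below its controls at 784 and 781 (log2 fold change −0.87 ± 0.04, adjusted p = 8.7e-14). The nuclear receptor Nr2f1 rose from 39.4 and 37.7 to 97.6 and 87.2, with controls at 116 and 125 (log2 fold change 1.26 ± 0.06, adjusted p = 3.4e-13). The list thus held genes of both directions. Over 21 tested retinoic acid pathway genes, 6 were higher and 6 lower (median −0.04). Hox genes encode position along the head-to-tail axis. Of 37 tested, 7 were higher and 13 lower (median −0.13). Hoxb1, of the hindbrain, read 5.78 and 5.72 CPM against 20.5 and 21.9 on day 6 auxin, 49.3 and 52.9 on day 4 auxin and 12 and 12.6 in controls, with washout the lowest of these groups (log2 fold change −1.88 ± 0.08, adjusted p = 5.1e-14). Hoxc5 rose from 6.49 and 5.6 to 15.3 and 14.1, with controls at 17.9 and 21.1 (log2 fold change 1.28 ± 0.10, adjusted p = 1.1e-09), and Hoxa13 fell from 5.97 and 6.45 to 2.68 and 2.37, with controls at 1.59 and 1.2 (log2 fold change −1.30 ± 0.15, adjusted p = 3.6e-07). In the Notch pathway list of 18, 4 (22.2%) were higher and 3 (16.7%) lower (median 0.30), near or below the shares of 23.5% and 22.8% over all tested genes. The ligand gene Jag1 rose to 16.5 and 14.9 CPM from 6.83 and 6.73 (log2 fold change 1.21 ± 0.10, adjusted p = 2.1e-09), and the effector Hey2 fell to 3.05 and 3.88 from 9.33 and 8.99 (log2 fold change −1.40 ± 0.14, adjusted p = 2.3e-08). Jag1 lay above, and Cyp26b1 and Hoxb1 lay below all 8 control and auxin libraries in washout. Cyp26b1 and Hey2 did not pass with all 24 libraries in the fit.

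Pluripotency genes were mostly lower than on auxin and higher than in controls. Of 24 tested, 6 were higher and 14 lower than in day 6 auxin (median −0.29), while 19 were higher and 2 lower than in control (median 0.75). Nanog read 19.8 and 20.6 CPM in washout, 19.6 and 20.2 in day 6 auxin, 31.5 and 29.8 in day 4 auxin and 10.6 and 10.8 in controls. Washout and day 6 auxin libraries overlapped (log2 fold change 0.03 ± 0.07, adjusted p = 0.77), and both were above control (log2 fold change 0.92 ± 0.07, adjusted p = 4.3e-10 for washout). Pou5f1 read 156 and 153 against 173 and 168 on auxin and 85.2 and 79.9 in controls, a small fall (log2 fold change −0.14 ± 0.04, adjusted p = 0.009) that was lost without day 4 washout replicate 2, without day 6 auxin replicate 1 and with the day 2 libraries in the fit. Dppa3, a gene of the early embryo and germ cells, fell from 38.7 and 36.1 to 13.7 and 11.6 CPM, near its controls at 10.5 and 10.5 (log2 fold change −1.57 ± 0.09, adjusted p = 1.4e-12). Fbxo15, a target of Pou5f1, read 50.4 and 56.7 against 97.3 and 99.4 on auxin and 33 and 32.5 in controls (log2 fold change −0.88 ± 0.05, adjusted p = 1.2e-11). Both genes lay between auxin and control. Germline and 2-cell-like genes were lower in 17 and higher in 2 of 23 (median −0.59). Tex101, a germ cell surface gene, fell from 9.22 and 11.2 to 2.47 and 3.51, with controls at 2.66 and 1.95 (log2 fold change −1.76 ± 0.16, adjusted p = 6e-09). Zscan4c, one of several near-identical copies, read 1.5 and 2.16 CPM in washout against 5.81 and 6.59 on auxin and 7.27 and 5.49 in controls (log2 fold change −1.75 ± 0.18, adjusted p = 5e-08), with washout the lowest of the 3 groups. Zscan4c lay below all 8 control and auxin libraries in washout. Pou5f1 did not pass with all 24 libraries in the fit.

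Genes of other early lineages were mixed in direction. The mesendoderm factor Eomes fell from 42 and 44.5 CPM to 14.6 and 15.6, with controls at 11 and 11.2 (log2 fold change −1.52 ± 0.07, adjusted p = 7.4e-14), and Cdx1, of the posterior embryo, from 7.26 and 6.28 to 2.82 and 3.44 (log2 fold change −1.11 ± 0.17, adjusted p = 1.3e-05). The primitive streak list held 4 higher and 4 lower of 16 (25% each, median −0.13), close to the shares over all tested genes. The endoderm list held 6 higher and 9 lower of 26 (median −0.03), among them Foxa2 at 64.3 and 72.3 against 37.1 and 36.2 CPM (log2 fold change 0.90 ± 0.06, adjusted p = 2.7e-11) and Sox7 at 34 and 35.5 against 60.1 and 60.7 (log2 fold change −0.80 ± 0.05, adjusted p = 4.5e-11). Foxa2 also marks the floor plate. Blood and endothelial genes were lower in 7 and higher in 1 of 18 (median −0.12, unchanged with the 1 member at 0 set to 3 counts). Gfi1b, a blood factor, stood at 0.424 and 0.244 against 1.9 and 1.62 CPM (log2 fold change −2.41 ± 0.33, adjusted p = 2.4e-06). Neural crest and placode genes held 4 higher and 4 lower of 13 (median −0.20). Tfap2b rose from 0 and 0.0718 to 0.656 and 0.557 CPM, with controls at 3.27 and 3.34 (log2 fold change 4.05 ± 0.65, adjusted p = 2.3e-05). Tfap2b, a neural crest factor, was nearly silent on auxin and stayed below control. Surface ectoderm and keratin genes held 6 higher and 2 lower of 13 (median 0.25), with Krt8 at 201 and 202 against 97.5 and 97.2 on auxin and 191 and 183 in controls (log2 fold change 1.05 ± 0.05, adjusted p = 4.3e-14). Foxa2 lay above, and Sox7 lay below all 8 control and auxin libraries in washout. Eomes, Cdx1, Sox7 and Gfi1b did not pass with all 24 libraries in the fit.

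Mesenchymal genes were mostly higher. Of 25 tested, 16 were higher (9 by at least 2-fold), 4 lower (2 by at least 2-fold) and 8 above all 8 libraries (median 0.67). The summed level of the list differed little, at 944 and 909 CPM in day 4 washout against 935 and 938 in day 6 auxin. Lum, a collagen-binding proteoglycan, read 19.9 and 21.6 CPM in washout, 3.04 and 2.84 in day 6 auxin, 0 and 0.0904 in day 4 auxin and 12.4 and 11.6 in controls (log2 fold change 2.82 ± 0.12, adjusted p = 1.3e-14). Tcf21, a factor of organ mesenchyme, read 22.1 and 23.6 in washout, 3.84 and 3.48 in day 6 auxin, 2.56 and 1.75 in day 4 auxin and 5.85 and 5.63 in controls (log2 fold change 2.64 ± 0.11, adjusted p = 2.4e-14). Both lay above control, and higher still in day 6 washout, at 38.2 and 40.3 and at 31.6 and 33.3 CPM. Of 22 collagen chain genes, 11 were higher and 5 lower (median 0.70). Col1a2 read 40.8 and 42.3 against 16.2 and 12.3 on auxin and 58.1 and 59 in controls (log2 fold change 1.54 ± 0.09, adjusted p = 4.1e-12), and the cartilage collagen Col9a1 1.83 and 2.75 against 0.199 and 0.18 on auxin and 2.07 and 1.56 in controls (log2 fold change 3.59 ± 0.32, adjusted p = 5.4e-09). Col1a2 stayed below its control libraries, while those of Col9a1 overlapped. Of 20 muscle genes, 8 were higher (6 by at least 2-fold), 4 lower (1 by at least 2-fold) and 8 above all 8 libraries (median 0.12). Their summed level was 902 and 856 CPM in day 4 washout against 897 and 899 in day 6 auxin. The smooth muscle gene Tagln read 20.2 and 18.8 CPM against 3.11 and 2.76 on auxin and 1.67 and 1.95 in controls (log2 fold change 2.73 ± 0.10, adjusted p = 4.4e-15). Ankrd1, a muscle and stretch-responsive nuclear protein, read 30.8 and 32.9 against 2.68 and 2.69 on auxin and 2.4 and 2.84 in controls (log2 fold change 3.57 ± 0.11, adjusted p = 2.8e-16), and the natriuretic peptide gene Nppb 5.01 and 4.85 against 0.53 and 0.413 on auxin and 0.525 and 0.627 in controls (log2 fold change 3.38 ± 0.22, adjusted p = 1.9e-11). Ankrd1 and Nppb stand outside the muscle list. Tagln, Ankrd1 and Nppb were high in all 4 washout libraries and low in all others of days 4 and 6. Lum, Tcf21, Tagln, Ankrd1 and Nppb lay above all 8 control and auxin libraries in washout. Col1a2 did not pass with all 24 libraries in the fit.

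Of 19 genes of BMP signalling, 12 were higher, 3 lower and 10 above all 8 control and auxin libraries (median 0.41). Bmp4 read 19 and 18.6 CPM against 7.03 and 6.23 on auxin and 8.8 and 9.87 in controls (log2 fold change 1.50 ± 0.11, adjusted p = 1.2e-10), and Bmp5 9.33 and 8.92 against 2.71 and 2.71 on auxin and 6.99 and 6.58 in controls (log2 fold change 1.75 ± 0.13, adjusted p = 2.3e-10). Both ligand genes were highest in washout among these groups. Of 24 Wnt targets and antagonists, 13 were higher and 2 lower (median 0.29). The antagonist Nkd2 read 1.7 and 1.36 against 0.563 and 0.341 on auxin and 2.56 and 2.37 in controls (log2 fold change 1.74 ± 0.25, adjusted p = 5.7e-06), and the enhancer Rspo3 7.71 and 9.11 against 3.77 and 3.45 on auxin and 6.34 and 7.47 in controls (log2 fold change 1.22 ± 0.13, adjusted p = 5.2e-08). Against control Rspo3 was not called (log2 fold change 0.28 ± 0.12, adjusted p = 0.053). Of 19 FGF pathway genes, 9 were higher and 3 lower (median 0.38). Dusp6, a phosphatase induced by ERK signalling that restrains it, read 113 and 116 CPM in washout, 25.1 and 26.4 in day 6 auxin, 48.1 and 54.5 in controls and 47 and 48.1 in day 6 washout (log2 fold change 2.15 ± 0.06, adjusted p = 3.9e-17). Its level was highest in day 4 washout. The related feedback inhibitor Spry1 read 44.7 and 41.6 against 15.6 and 15.7 on auxin and 21.8 and 24.6 in controls (log2 fold change 1.46 ± 0.08, adjusted p = 9e-13). Bmp4, Bmp5, Rspo3, Dusp6 and Spry1 lay above all 8 control and auxin libraries in washout.

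Immediate early genes were higher without exception. All 18 tested were called, 17 by at least 2-fold, and all 18 lay above the 8 control and auxin libraries (median 2.27). The zinc-finger factor Egr3 (mm10 chromosome 14, 70077203 to 70082614, plus strand) read 9.1 and 7.81 CPM in washout, 0.0331 and 0.0718 in day 6 auxin, 0.0657 and 0.237 in controls and 1.87 and 1.96 in day 6 washout (log2 fold change 7.30 ± 0.36, adjusted p = 2.2e-13). The AP-1 subunit Fosb read 56.8 and 57.2 against 2.88 and 2.48 on auxin, 8.54 and 3.93 in controls and 71.5 and 98.6 in day 6 washout (log2 fold change 4.41 ± 0.26, adjusted p = 5.2e-12). Its relative Fos read 104 and 115 against 12.6 and 12.5 on auxin, 17.9 and 17.6 in controls and 138 and 165 in day 6 washout (log2 fold change 3.13 ± 0.11, adjusted p = 7.3e-16). All 4 washout libraries were high for each of them. Npas4, an activity-induced neuronal factor outside the list, read 5.28 and 4.21 against 0.612 and 0.431 on auxin and 0.328 and 0.279 in controls (log2 fold change 3.17 ± 0.27, adjusted p = 2.8e-09). With all 24 libraries in the fit, 14 of the 18 were still called higher. Egr3, Fosb, Fos and Npas4 lay above all 8 control and auxin libraries in washout.

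Egr2 read 7.4 and 8.51 CPM against 0.496 and 0.736 on auxin and 0.985 and 1 in controls (log2 fold change 3.70 ± 0.22, adjusted p = 5e-12). Egr2 lay above all 8 control and auxin libraries in washout. Its promoter is shown because it held a CArG box, the word bound by serum response factor, in capitals below. Of 12 immediate early genes with a window, it was the only one with the word. The window is 1 of 4 RefSeq windows of Egr2 that held the word, some of which overlap. The word was found in 1.71% of all tested genes with a window and in 3.95% (24 of 607) of those higher by at least 2-fold. Genes lower by at least 2-fold held it in 1.99% (9 of 452) and genes not called in 1.52%.
Egr2 chr10:67537619-67537918, plus strand: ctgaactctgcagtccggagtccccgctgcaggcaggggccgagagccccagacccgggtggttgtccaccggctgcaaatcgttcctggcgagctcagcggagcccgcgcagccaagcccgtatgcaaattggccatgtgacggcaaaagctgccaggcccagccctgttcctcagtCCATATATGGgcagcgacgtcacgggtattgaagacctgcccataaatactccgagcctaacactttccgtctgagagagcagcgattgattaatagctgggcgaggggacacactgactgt

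The stress response lists held more higher than lower genes, and chaperones were mixed. Of 22 p53 targets, 12 were higher, 3 lower and 14 above all 8 libraries (median 0.18). Plk2, a polo-like kinase, read 214 and 201 CPM against 81.6 and 83.5 on auxin and 104 and 100 in controls (log2 fold change 1.33 ± 0.05, adjusted p = 1.7e-15), and the antiproliferative gene Btg2 186 and 172 against 74.5 and 72.3 on auxin and 85.5 and 82.2 in controls (log2 fold change 1.29 ± 0.05, adjusted p = 6.2e-15). Both genes are also known to respond as immediate early genes. Of 20 genes of the integrated stress response, 10 were higher and 2 lower (median 0.21). Atf3, which also stands in the immediate early list, read 93.8 and 89.5 against 13 and 13.2 on auxin and 8.6 and 10.5 in controls (log2 fold change 2.80 ± 0.09, adjusted p = 2.2e-16), while Phgdh, the first enzyme of serine synthesis, fell from 138 and 141 to 72.8 and 72.4 (log2 fold change −0.95 ± 0.05, adjusted p = 2.7e-12). Of 16 chaperone genes, 7 were higher and 8 lower (median −0.15), with the abundant chaperone Hspa8 at 714 and 658 CPM against 1018 and 1042 on auxin and 1111 and 1013 in controls (log2 fold change −0.59 ± 0.04, adjusted p = 3.8e-10). Plk2, Btg2 and Atf3 lay above, and Phgdh and Hspa8 lay below all 8 control and auxin libraries in washout.

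Metabolic and cell-cycle genes mostly differed by small amounts. Of 24 cholesterol synthesis genes, 17 were higher and 3 lower, none by 2-fold (median 0.26). Ebp, a sterol isomerase, read 40.8 and 36.6 CPM against 22.3 and 22.9 on auxin and 35.5 and 35.1 in controls (log2 fold change 0.78 ± 0.07, adjusted p = 1.7e-09), while Idi1, an isoprenoid isomerase, fell from 14.4 and 14.2 to 8.47 and 8.7 (log2 fold change −0.74 ± 0.09, adjusted p = 3.7e-07). Of 26 glycolysis and hypoxia genes, 13 were higher and 6 lower (median 0.31). The glucose transporter Slc2a1 rose to 214 and 259 from 138 and 138, near its controls at 277 and 242 (log2 fold change 0.78 ± 0.07, adjusted p = 2.2e-09), while Pgk1 read 111 and 123 in washout against 308 and 318 on auxin, 325 and 291 in controls and 124 and 127 in day 6 washout (log2 fold change −1.42 ± 0.05, adjusted p = 3.2e-15). Pgk1, a glycolytic kinase, was low in all 4 washout libraries. Of 24 DNA replication genes, 13 were higher and 1 lower (median 0.20), for example Gins2 at 58.3 and 60.9 against 42.4 and 39.9 CPM (log2 fold change 0.54 ± 0.06, adjusted p = 7.6e-08). Of 22 mitosis genes, 5 (22.7%) were higher and 4 (18.2%) lower (median 0.02), near the shares over all tested genes. Cyclin B1 (Ccnb1) was at 172 and 173 against 210 and 218 CPM (log2 fold change −0.31 ± 0.04, adjusted p = 3e-06). Most of these calls were lost in the largest fit: with all 24 libraries, 1 cholesterol gene, 0 glycolysis genes and 0 replication genes were called higher. Ebp and Gins2 lay above, and Idi1, Pgk1 and Ccnb1 lay below all 8 control and auxin libraries in washout. Idi1, Slc2a1, Gins2 and Ccnb1 did not pass with all 24 libraries in the fit.

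Genes that were lower in washout than in all other libraries of days 4 and 6 included several short RNAs. Rn7sk, the small nuclear RNA that holds the elongation factor P-TEFb, read 1.27 and 2.31 CPM in day 4 washout, 15.1 and 14.1 in day 6 auxin, 22.8 and 13.3 in controls and 1.68 and 1.37 in day 6 washout (log2 fold change −3.01 ± 0.22, adjusted p = 1.3e-10). Rpph1, the RNA of ribonuclease P, read 0.309 and 0.487 against 3.04 and 3.16 on auxin and 2.33 and 2.65 in controls (log2 fold change −2.94 ± 0.23, adjusted p = 4.3e-10). The annotated microRNA gene Mir6236 read 19.7 and 13.1 against 112 and 108 on auxin and 98.6 and 93.4 in controls (log2 fold change −2.75 ± 0.12, adjusted p = 3.1e-14). All 4 washout libraries were low for each. Of 10 tested small and structural RNA genes, 5 were lower and 0 higher (median −1.06). Of 20 replication-dependent histone genes, whose mRNAs lack a poly(A) tail, 9 were lower, 2 higher and 11 below all 8 libraries (median −0.87, the same with the 1 member at 0 set to 3 counts). Their summed level differed little, at 35.4 and 35.4 CPM in day 4 washout against 36.8 and 40 in day 6 auxin. Hist1h1e, a linker histone, read 0.328 and 0.417 CPM against 2.32 and 2.8 on auxin and 2.92 and 2.27 in controls (log2 fold change −2.76 ± 0.27, adjusted p = 1.7e-08). Ndufs5, a subunit of respiratory complex I, read 1.77 and 2.4 against 13.3 and 11.9 on auxin and 11.6 and 11.5 in controls (log2 fold change −2.59 ± 0.12, adjusted p = 1.8e-13), and Btg3, an antiproliferative gene, 1.95 and 2.24 against 11.8 and 12.2 on auxin and 11.1 and 10.5 in controls (log2 fold change −2.51 ± 0.12, adjusted p = 1.9e-13). Rn7sk, Rpph1, Mir6236, Hist1h1e, Ndufs5 and Btg3 lay below all 8 control and auxin libraries in washout.

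Processed pseudogenes, retrocopies of mRNAs that share most of their sequence with a parent gene, were more often higher than lower. Of 1552 tested, 469 (30.2%) were higher, 206 (13.3%) lower and 585 (37.7%) above all 8 control and auxin libraries, with a median of 0.39. The class as a whole was not set apart. It held 0.588% and 0.555% of all counts in day 4 washout and 0.54% and 0.531% in day 6 auxin. Its range over the 8 control and auxin libraries was 0.503% to 0.586%. Protein-coding genes held 4262 higher and 4187 lower of 16251, with a median of 0.00375. Rplp0-ps1, a ribosomal protein pseudogene, read 7.15 and 6.91 CPM in day 4 washout, 0.414 and 0.395 in day 6 auxin, 0.246 and 0.669 in controls and 6.63 and 5.81 in day 6 washout (log2 fold change 4.11 ± 0.25, adjusted p = 7.6e-12). Eif5al3-ps (3.82), Rpl36-ps3 (3.44) and Eif3s6-ps2 (3.25) rose likewise on the log2 scale. Reads of such copies cannot be assigned with certainty to the copy or its parent. The part of library handling in these values was not tested. Rplp0-ps1, Eif5al3-ps, Rpl36-ps3 and Eif3s6-ps2 lay above all 8 control and auxin libraries in washout.

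**Figure D5:**
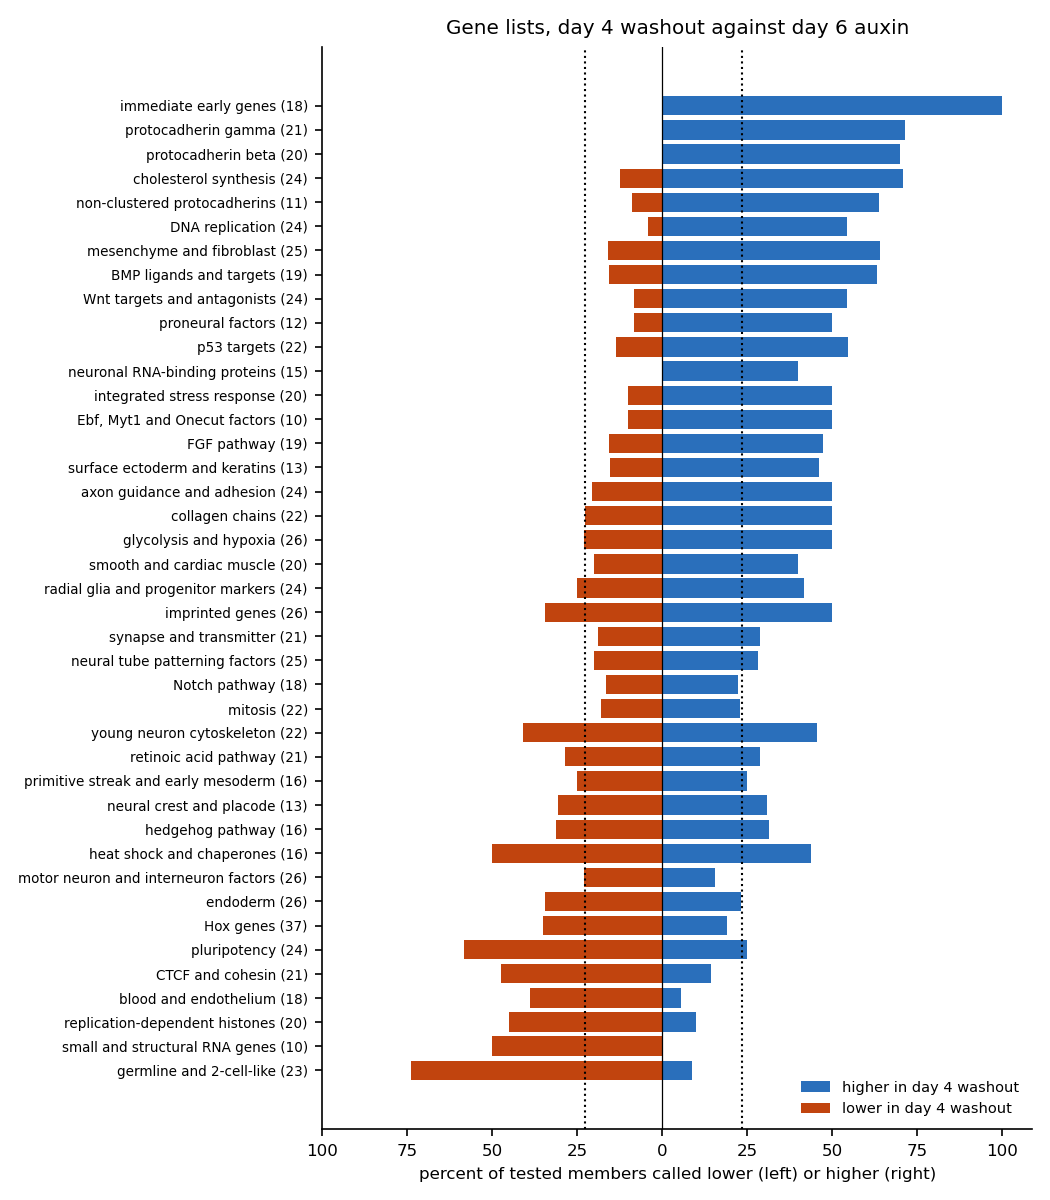
Percent of tested members called lower (red, left) or higher (blue, right) in day 4 washout than in day 6 auxin, for lists with at least 10 tested members (their number in brackets). Dotted lines mark the shares over all tested genes, 22.8% lower and 23.5% higher; immediate early genes reach farthest to the right, and germline and 2-cell-like genes have the largest lower share.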

How the data were processed

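RNA was sequenced from F123 mouse ES cells with a CTCF degron before and during neural differentiation. The authors deposited 1 table of raw read counts per gene, made with STAR and HTSeq on mm10, with edgeR also named, per the submitters' processing notes; tool versions and the gene annotation were not given in the sources used here. Groups came from sample titles, and the 1 line that names no gene was dropped. Gene positions and biotypes came from an mm10 annotation that matched 95.7% of the genes.

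Counts were tested with edgeR 4.0.16 (limma 3.58.1, R 4.3.3) by a quasi-likelihood fit with TMM factors to the 6 groups of days 4 and 6 (12 libraries), after a filter at a minimum count of 10 and a total of 15, with Benjamini-Hochberg adjustment over all genes tested. The common dispersion was 0.0019. Scripts were tested on simulated data. Depth limits low genes: below about 1 CPM a difference rests on few reads.

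The comparison and the 43 gene lists were chosen with earlier results of these data known. Genes were named by rule: 11 reference genes such as Ctcf and Pax6, the 12 largest changes each way among called genes averaging 1 or more in log2 CPM with no overlap between groups, and up to 4 members per list by the same order, passing over genes with clone identifiers; 15 protein-coding genes each way under the same limits on level and overlap, inside the range of the control and auxin libraries, were added after their values were seen. Replicate numbers did not pair the libraries, since same-numbered libraries correlated at −0.087 to 0.045 in their deviations from the group means. Alternatives were other libraries in the fit, DESeq2 1.42.0, upper-quartile factors, other filters, halved counts, a stricter threshold, a replicate block, leaving out each library and, chosen after seeing the data, protein-coding genes only.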

Additional observations from a re-analysis of the deposited data

How the results depend on the processing

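In the fit to all 24 libraries, 1606 genes were called in place of 10130, with 764 higher and 842 lower in place of 5138 and 4992, and 1104 changed at least 2-fold in place of 2470; the cause was not tested. The at least 2-fold count was 1646 with a minimum count of 50 and 1401 with protein-coding genes only, both of which test fewer genes. Of the 217 named genes, 93 lost their call with all 24 libraries, 29 of them also under another setting, and 0 lost it under another setting alone. Of 168 named genes called against the day 6 control, 95 lost that call with all 24 libraries and 0 under another setting alone. No named gene changed direction where it was called in that setting or in the fit reported here. Sox2, not called against day 6 auxin in any setting, ranged from −0.12 to 0.07 in log2 fold change. Over all genes, 0 were called in opposite directions by any setting and the fit reported here. Leaving out each library in turn gave 8007 to 8967 genes, 4085 to 4531 of them higher and 3922 to 4436 lower. With the replicate block, 9927 genes were called (5036 higher and 4891 lower), although the numbers do not pair the libraries. DESeq2 called 4884 higher and 4556 lower, upper-quartile factors gave 5037 and 5062, and a minimum count of 50 gave 4739 and 4766. Higher genes thus outnumbered lower ones in the fit reported here, and the reverse held with all 24 libraries, upper-quartile factors and the higher minimum count.

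With 2 libraries per group, p-values rest on a spread pooled over 6 groups. The lower share of even low counts coincides with the removal of auxin in all 4 washout libraries. The labels do not tie the replicate numbers to separate cultures.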
